A study of Mus musculus with 6 samples.

Results

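The genes of the mouse proteasome were described in lung group 2 innate lymphoid cells (ILC2s). The members were all entries whose gene symbol starts with Psma, Psmb, Psmc, Psmd, Psme, Psmf or Psmg followed by a digit, which gave 55 of the 55394 genes in the files. Of these, 49 encode a subunit, an activator, an inhibitor or an assembly chaperone of the proteasome. The other 6 are Psmc3ip, which has a similar symbol but is a partner of meiotic recombination proteins, and 5 pseudogenes of core subunits (Psma5-ps, Psmb5-ps, Psmb6-ps, Psmb6-ps2 and Psmb7-ps2).

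RNA from 6 libraries was sequenced, each made from 1000 sorted lung ILC2s of wild type C57BL/6 neonates with a low-input kit (SMART-seq). In the Abx group (3 libraries) the pregnant dams had received a broad-spectrum antibiotic cocktail in the drinking water from gestation day 10 to 14, and in the Con group (3 libraries) the dams had not. The study asked which transcripts of neonatal ILC2s differ after maternal antibiotic exposure. Both genders were used, and how many pups or litters went into a library is not given in the sources used here, so the p-values measure only the spread between these libraries, which may be technical. Levels are in FPKM, fragment counts scaled by exon length and by library size, so that levels of different genes are compared per length.

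The proteasome is the main protease of the cytosol and nucleus, and degrades proteins that carry ubiquitin chains. Its 20S core is a barrel of stacked rings, in which alpha subunits form the outer gates and beta subunits the inner chamber, and the beta subunits encoded by Psmb5, Psmb6 and Psmb7 cut peptide bonds. The 19S cap unfolds substrates and feeds them into the core. In lymphocytes and after interferon exposure, Psmb8, Psmb9 and Psmb10 are built into new cores in place of Psmb5, Psmb6 and Psmb7, respectively, which gives the immunoproteasome that supplies many of the peptides presented on MHC class I.

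The inducible genes Psmb9 and Psmb8 lie on chromosome 17 within the MHC, alternating with the peptide transporter genes in the order Psmb9, Tap1, Psmb8 and Tap2. In the GENCODE annotation of GRCm38, Psmb9 spans chr17:34181987-34187764 on the minus strand, Tap1 chr17:34187553-34197225 on the plus strand, Psmb8 chr17:34197721-34201454 on the plus strand and Tap2 chr17:34203527-34216321 on the plus strand. The third inducible gene, Psmb10, is at chr8:105935735-105938444 on the minus strand. The constitutive gene Psmb5 is at chr14:54614119-54618022 on the minus strand, Psmb6 at chr11:70525367-70527858 on the plus strand and Psmb7 at chr2:38588036-38644087 on the minus strand. Windows at the RefSeq starts of Psmb8, Psmb9 and Psmb5 are shown because these genes carry the comparison of inducible with constitutive subunits. Each is 300 bases of the gene's strand from RefSeq on GRCm38.p6, with 250 bases before and 50 after the transcript start that RefSeq gives. That start lies inside the GENCODE span given above for each of the 3 genes, so the windows of Psmb8 and Psmb9 are wholly within those spans, and positions are counted from the RefSeq start. Capitals mark matches on either strand to TTCNNNGAA, the gamma-activated site, to the core of the interferon-stimulated response element, or to TGACNNNGC, the core of the antioxidant response element.
Psmb8, chr17:34197945-34198244, plus strand: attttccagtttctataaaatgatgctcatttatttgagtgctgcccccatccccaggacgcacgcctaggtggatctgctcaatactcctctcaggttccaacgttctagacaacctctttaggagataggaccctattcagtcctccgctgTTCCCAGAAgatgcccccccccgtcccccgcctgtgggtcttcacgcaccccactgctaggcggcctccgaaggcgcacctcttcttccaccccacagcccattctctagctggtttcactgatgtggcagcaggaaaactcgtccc
Psmb9, chr17:34187281-34187580, minus strand: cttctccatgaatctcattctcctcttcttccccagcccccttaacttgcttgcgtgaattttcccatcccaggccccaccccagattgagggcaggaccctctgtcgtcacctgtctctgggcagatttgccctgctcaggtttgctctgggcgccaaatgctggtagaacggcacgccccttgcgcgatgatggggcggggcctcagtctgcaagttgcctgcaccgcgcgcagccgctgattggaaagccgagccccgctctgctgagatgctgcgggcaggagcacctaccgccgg
Psmb5, chr14:54617946-54618245, minus strand: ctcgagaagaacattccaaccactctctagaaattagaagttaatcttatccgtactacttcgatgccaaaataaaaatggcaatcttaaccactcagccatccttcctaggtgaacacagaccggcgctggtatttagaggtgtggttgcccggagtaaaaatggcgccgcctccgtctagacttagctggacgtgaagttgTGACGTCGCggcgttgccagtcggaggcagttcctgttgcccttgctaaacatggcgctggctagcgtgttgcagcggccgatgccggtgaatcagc

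The Psmb8 window held 1 match to TTCNNNGAA, from base -97 to -89 of the RefSeq start. The Psmb5 window held 1 match to TGACNNNGC, from base -47 to -39. None of the 3 patterns was found in the Psmb9 window, in which the annotated start of Tap1 on the other strand lies, nor in the window of Psmb10. A start window was at hand for 41 of the 49 proteasome genes. TTCNNNGAA was in 3 of these 41 (7.32%; Psmb8, Psmd2 and Psmg1) and in 8.47% of all 27025 windows of the same length. The core of the interferon-stimulated response element was in 5 (12.2%; Psmb3, Psmd4, Psmd9, Psme1 and Psmg4), against 3.49% of all windows. TGACNNNGC was in 6 (14.6%; Psmb5, Psmb6, Psmc6, Psmd12, Psmd9 and Psme4), against 12.5% of all windows. These are matches of letters, and binding was not measured.

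Of the 49 proteasome genes, 47 reached 1 FPKM in 3 or more libraries and were tested among 8718 genes. The remaining pair, the testis-specific alpha subunit gene Psma8 and the thymus-specific beta subunit gene Psmb11, were at 0 in every library. Together the 49 proteasome genes took 0.758% to 0.865% of all FPKM in Con and 0.860% to 0.967% in Abx. Most proteasome genes were among the well-expressed genes of these cells. The median of the tested members, which here include Psmc3ip and Psma5-ps, was 45.6 to 69.3 FPKM in each library. For all genes tested it was 8.42 to 9.38 FPKM. The spread between libraries of a group was smaller for the catalytic inducible genes than for the other classes given here, with a median pooled SD of 0.23 on the log2(FPKM + 1) scale. It was 0.42 for the 14 constitutive core genes, 0.59 for the 17 cap genes, 0.72 for the 7 assembly chaperones and 0.93 for the activators and the inhibitor. Over all 47 genes it was 0.50, beside 0.51 for the 2703 genes of the files with a mean of at least 20 FPKM. The highest library was within 2-fold of the lowest for 12 genes, among them Psmb8, Psmb9 and Psmb10.

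**Figure D1:**
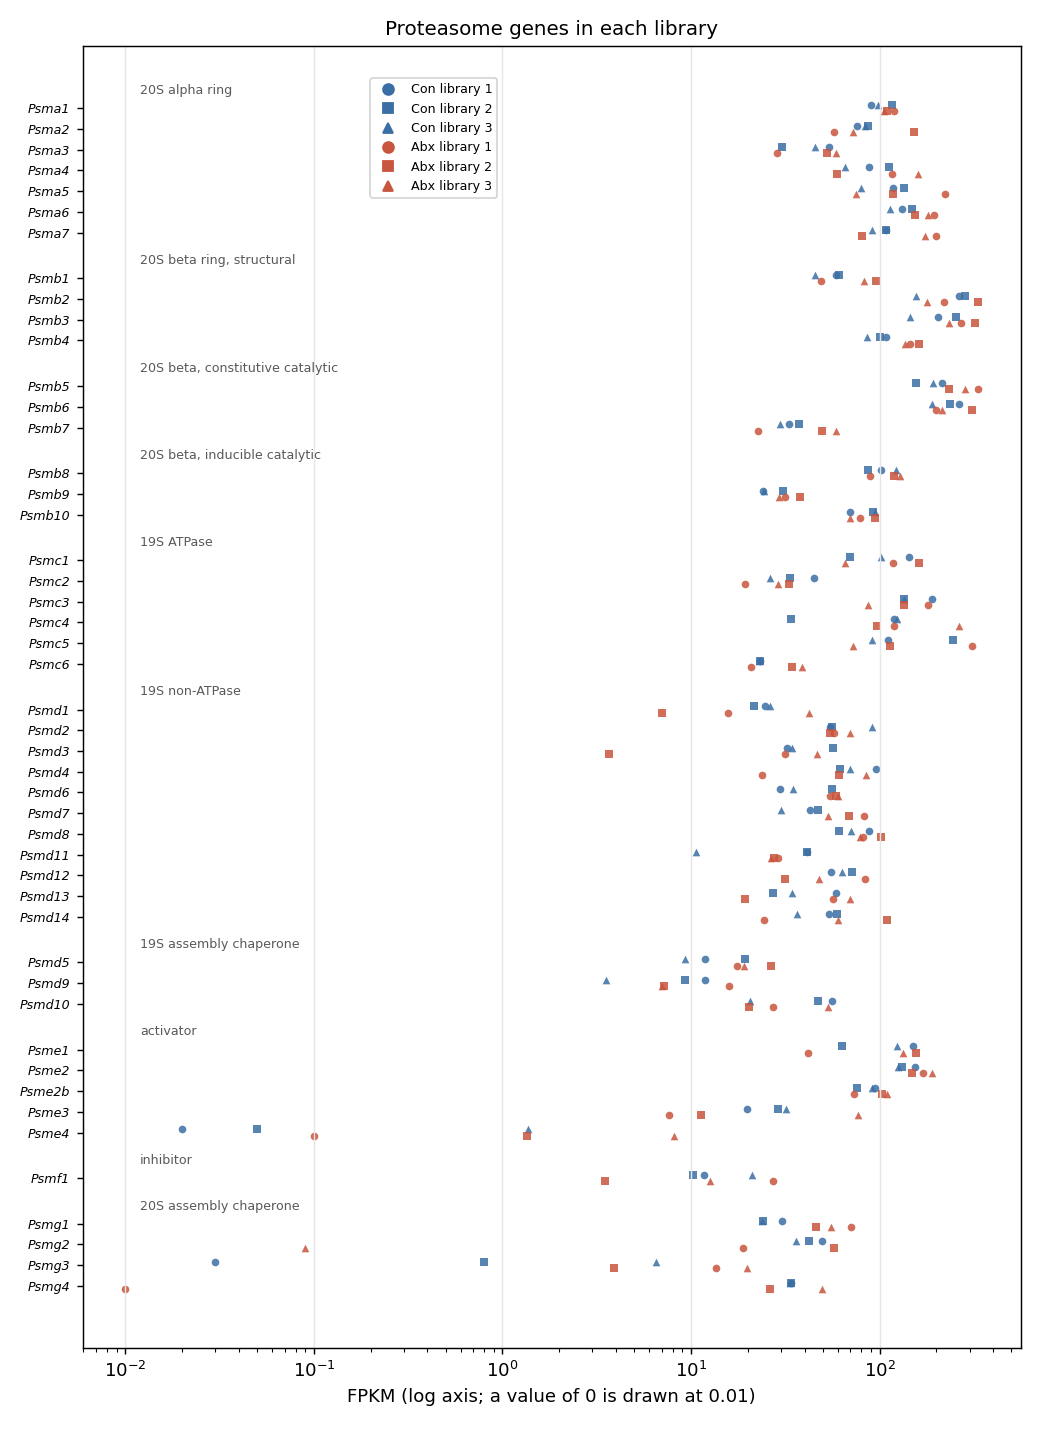
FPKM of the 47 tested proteasome genes in each library on a log axis, ordered by role, with Con in blue and Abx in red. Core genes sit between 22.7 and 332 FPKM with the groups side by side, whereas Psme4, Psmg2, Psmg3 and Psmg4 spread over wide ranges within a group.

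Between the groups, 5 proteasome genes were higher in each Abx library than in any Con library: the core genes Psma6, Psmb4 and Psmb5, the cap gene Psmd7 and the assembly chaperone gene Psmg1. No proteasome gene passed an adjusted p under 0.05 with a fold over 2, the thresholds of the study, in limma, where 5 of the 8718 genes did (0.0574%). At an unadjusted p under 0.05, 4 of the 47 were higher in Abx (Psmg1, Psmb4, Psmb5 and Psmd7, 8.51%; all genes 4.74%) and 0 were lower (all genes 6.25%). With a fold over 2 as well, Psmg1 was left (all genes 9.34% in either direction). Under quantile normalization, only 1 of the 47, Psmg1, kept an unadjusted p under 0.05 in limma. The 5 genes without overlap and with Abx higher were 10.6% of the 47, near the 8.49% of all genes. With Abx lower this held for 0 of the 47, against 8.73% of all genes. The median fitted difference (Abx minus Con, log2(FPKM + 1)) of the 47 was 0.13 and 33 were above 0, beside -0.06 and 47% for all genes tested, but with quantile normalization the median was -0.03 and 22 were above 0.

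**Figure D2:**
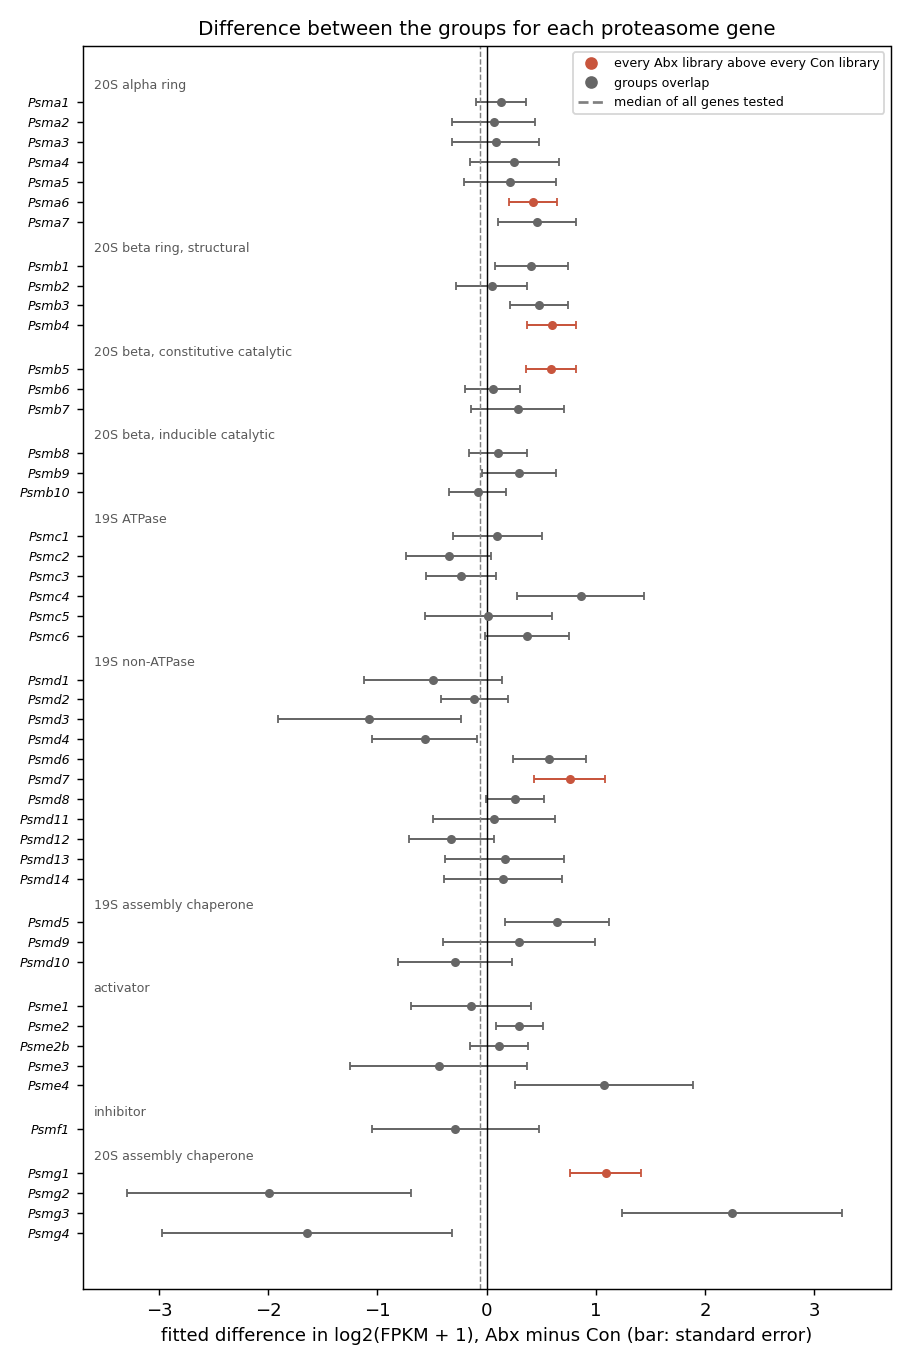
Fitted difference in log2(FPKM + 1), Abx minus Con, for each of the 47 tested proteasome genes, with its standard error from limma; the dashed line is the median of all 8718 genes (-0.06). The 5 red points are the genes whose Abx libraries all exceed the Con libraries, and the widest bars belong to core assembly chaperones.

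In the core, the alpha ring genes Psma1 to Psma7 form the gated outer rings. By mean over the 6 libraries Psma6 was the highest of them at 154 FPKM and Psma3 the lowest at 45.0 FPKM. The ring contains each of these subunits in equal number, yet within a library the highest of the 7 transcripts was 2.43 to 7.74 times the lowest. Psma6 was at 132, 149 and 114 FPKM in Con, against 194, 154 and 181 FPKM in Abx, so that the Abx libraries all exceeded those of Con. On the log2(FPKM + 1) scale the fitted difference of Psma6, Abx minus Con, was 0.42 (SE 0.22, limma adjusted p = 0.553, n = 3 per group). For the other 6 alpha genes the groups overlapped. Psma5 reached 222 FPKM in Abx library 1 and had 118 and 75.1 FPKM in Abx libraries 2 and 3, beside 117, 135 and 79.3 FPKM in Con.

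The beta subunits without catalytic activity are encoded by Psmb1, Psmb2, Psmb3 and Psmb4. Psmb2 had the highest mean of all proteasome genes at 239 FPKM, and Psmb1 the lowest of these 4 at 65.4 FPKM. Psmb4 was at 108, 101 and 85.5 FPKM in Con, against 145, 162 and 137 FPKM in Abx, with no overlap between the groups. The fitted difference of Psmb4 was 0.60 (SE 0.22, limma adjusted p = 0.354), a fold of 1.51. In Psmb2 the spread exceeded the difference, with 264, 285 and 157 FPKM in Con, 219, 331 and 179 FPKM in Abx and a fitted difference of 0.05 (SE 0.32, limma adjusted p = 0.978).

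Psmb5 encodes the subunit that cuts after hydrophobic residues. It was at 215, 155 and 193 FPKM in Con, against 332, 234 and 285 FPKM in Abx. Every Abx library was above every Con library, and the fitted difference of Psmb5 was 0.59 (SE 0.23, limma adjusted p = 0.380), a fold of 1.51. Its inducible counterpart Psmb8 was at 101, 86.7 and 122 FPKM in Con, against 88.5, 119 and 128 FPKM in Abx. These groups overlapped almost entirely, with a fitted difference of 0.11 (SE 0.26, limma adjusted p = 0.913). The direction of Psmb8 turned without Con library 2 or without Abx library 3, and with quantile normalization (-0.06).

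Psmb6, which cuts after acidic residues, was at 264, 235 and 190 FPKM in Con, against 199, 310 and 215 FPKM in Abx. Psmb9, which takes its place, was at 24.2, 30.8 and 24.4 FPKM in Con, against 31.4, 37.8 and 29.2 FPKM in Abx. Both pairs of groups overlapped, although for Psmb9 only Con library 2 reached into the Abx range. The fitted differences were 0.06 (SE 0.25, limma adjusted p = 0.958) for Psmb6 and 0.30 (SE 0.34, limma adjusted p = 0.813) for Psmb9, and that of Psmb6 turned negative with quantile normalization (-0.03) and without Con library 3 or Abx library 2.

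Psmb7, which cuts after basic residues, was the lowest constitutive catalytic gene. It was at 32.9, 37.6 and 29.6 FPKM in Con, against 22.7, 49.8 and 58.9 FPKM in Abx, so that the Abx libraries lay on both sides of the Con range. Its counterpart Psmb10 was at 70.0, 92.6 and 94.5 FPKM in Con, against 78.3, 94.9 and 69.3 FPKM in Abx, which overlapped throughout. The fitted differences were 0.28 (SE 0.42, limma adjusted p = 0.862) for Psmb7 and -0.08 (SE 0.26, limma adjusted p = 0.937) for Psmb10, which turned to 0.02 without Abx library 3. That of Psmb7 was 0.02 without Abx library 3 and 0.69 without Abx library 1.

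**Figure D3:**
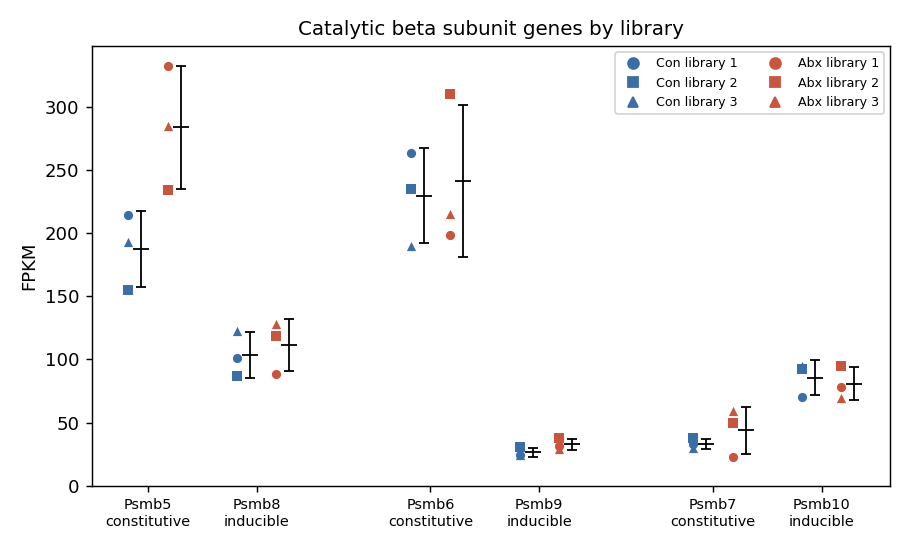
FPKM of the 6 catalytic beta subunit genes in each library, with each inducible gene beside the constitutive gene it replaces; points are libraries, and the bars give the mean and SD of the 3 libraries of a group. Psmb5 is the gene of the 6 whose Abx libraries (234 to 332 FPKM) all lie above the Con libraries (155 to 215 FPKM).

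In every library Psmb5 and Psmb6 were the most abundant of the 6 catalytic transcripts, followed by Psmb8 and Psmb10, with Psmb7 and Psmb9 the least abundant. Psmb5 and Psmb6 had means of 236 and 235 FPKM over all libraries and changed places between libraries, so they did not differ beyond their spread. The ranges of Psmb8 and Psmb10 overlapped, as did those of Psmb7 and Psmb9. The lowest value of Psmb6, 190 FPKM, was above the highest of Psmb8, 128 FPKM, and the lowest value of Psmb10, 69.3 FPKM, was above the highest of Psmb7, 58.9 FPKM.

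The inducible transcript was therefore less abundant than its constitutive counterpart for 2 of the 3 pairs. Psmb8 was at 0.473, 0.558 and 0.634 times Psmb5 in Con, against 0.267, 0.506 and 0.449 times Psmb5 in Abx. Abx library 2 lay within the Con range and the other Abx libraries below it. The difference in log2 ratio was -0.49 (exact two-sided permutation p = 0.2, 0.5 adjusted over the 3 pairs, n = 3 per group). For Psmb9 to Psmb6 the ratios were 0.0917, 0.131 and 0.129 in Con, against 0.158, 0.122 and 0.136 in Abx, which is the lowest of the 3 pairs in each library. This log2 ratio differed by 0.24 between the groups (exact permutation p = 0.4, adjusted 0.5). Psmb10, in contrast, exceeded Psmb7 in all 6 libraries, at 2.13, 2.46 and 3.19 times in Con, against 3.45, 1.91 and 1.18 times in Abx. The Abx libraries held both the highest and the lowest of these ratios, and the difference in log2 ratio was -0.37 (exact permutation p = 0.5, adjusted 0.5), which was 0.00052 without Abx library 3. With 3 libraries against 3 the smallest possible p is 0.1, so no pair could have passed 0.05.

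Summed over the 3 pairs, the inducible genes took 27.7%, 32.9% and 36.9% of catalytic FPKM in Con and 26.4%, 29.7% and 28.8% in Abx. The mean was 32.5% ± 4.64 in Con and 28.3% ± 1.73 in Abx (SD, n = 3), and 2 of the Abx libraries were within the Con range. The summed inducible FPKM overlapped between groups, with 196 to 241 in Con, against 198 to 251 in Abx. The summed constitutive FPKM did not, with 412 to 511 in Con, against 553 to 594 in Abx.

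**Figure D4:**
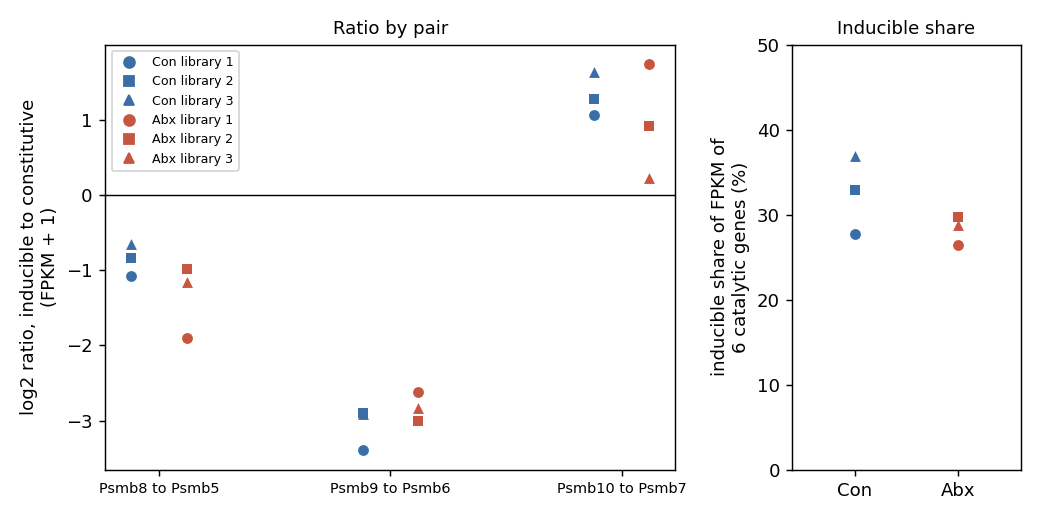
Left, log2 ratio of inducible to constitutive FPKM (each plus 1) for the 3 catalytic pairs in each library, where 0 means equal levels; right, the inducible share of the FPKM of the 6 catalytic genes in percent. The first pairs lie below 0 and Psmb10 to Psmb7 above 0 in all libraries, and the Con and Abx points overlap in every column.

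The 6 ATPases of the cap, Psmc1 to Psmc6, form the ring that unfolds substrates. Psmc5 had the highest mean of the cap genes at 157 FPKM, with values of 111, 244 and 91.4 FPKM in Con, against 310, 114 and 72.4 FPKM in Abx. Psmc6 was the lowest ATPase gene at a mean of 27.2 FPKM. Psmc2 was at 44.9, 33.6 and 26.1 FPKM in Con, against 19.4, 33.1 and 29.0 FPKM in Abx, a fitted difference of -0.35 (SE 0.39, limma adjusted p = 0.812). The groups overlapped for all 6.

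Among the 11 non-ATPase subunits of the cap, Psmd8 was the highest at a mean of 80.2 FPKM and the scaffold subunit gene Psmd1 the lowest at 22.9 FPKM. Psmd7, which encodes the partner of the deubiquitinase subunit Psmd14, was at 42.9, 46.9 and 30.1 FPKM in Con, against 83.1, 68.5 and 53.5 FPKM in Abx. Every Abx library was above every Con library, with a fitted difference of 0.76 (SE 0.32, limma adjusted p = 0.447), a fold of 1.69. Psmd14 itself was at 53.9, 59.5 and 36.4 FPKM in Con, against 24.3, 109 and 60.3 FPKM in Abx, which overlapped.

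Some of the lower means in Abx rested on a single library. Psmd3, a structural cap subunit, was at 32.2, 56.6 and 34.4 FPKM in Con, against 31.5, 3.69 and 46.6 FPKM in Abx, and its fitted difference of -1.07 (SE 0.84, limma adjusted p = 0.713) became -0.05 without Abx library 2. Psmd4, a ubiquitin receptor, was at 95.5, 61.8 and 69.5 FPKM in Con, against 23.9, 60.9 and 84.3 FPKM in Abx, and its difference of -0.57 (SE 0.48, limma adjusted p = 0.733) became -0.05 without Abx library 1. For Psmd1, by contrast, Abx libraries 1 and 2 were below the Con range and Abx library 3 was above it. Its values were 24.7, 21.7 and 26.3 FPKM in Con, against 15.6, 7.02 and 42.1 FPKM in Abx. For each of these 3 genes at least 1 Abx library lay within or above the Con range.

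The chaperones that assemble the cap, Psmd5, Psmd9 and Psmd10, had means of 17.2, 9.15 and 37.4 FPKM, and their groups overlapped. The chaperones of core assembly held both the largest positive and the largest negative fitted differences of the 47 genes. Psmg1 was at 30.3, 24.1 and 23.8 FPKM in Con, against 70.4, 46.0 and 55.2 FPKM in Abx. This was the proteasome gene with the smallest p (fitted difference 1.09, SE 0.33, a fold of 2.13, limma adjusted p = 0.212), and its groups did not overlap. Psmg2, which works as a heterodimer with Psmg1, was at 49.6, 42.3 and 35.8 FPKM in Con, against 18.96, 57.3 and 0.09 FPKM in Abx. Abx libraries 1 and 3 of Psmg2 lay below the Con range and Abx library 2 lay above it. The fitted difference of Psmg2, -2.00 (SE 1.3, limma adjusted p = 0.655), became -0.34 without Abx library 3 and -3.14 with a pseudocount of 0.01.

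Psmg3 and Psmg4, which form the other chaperone dimer, were also uneven. Psmg3 was at 0.03, 0.80 and 6.54 FPKM in Con, against 13.6, 3.92 and 19.8 FPKM in Abx, a fitted difference of 2.25 (SE 1.01, limma adjusted p = 0.472), with overlap between Con library 3 and Abx library 2. Its difference was 3.49 with a pseudocount of 0.1 and 4.10 with 0.01. Psmg4 was steady in Con at 34.0, 34.1 and 33.5 FPKM and ranged over 0, 26.2 and 49.7 FPKM in Abx. Its fitted difference of -1.65 (SE 1.33, limma adjusted p = 0.719) turned to 0.09 without Abx library 1, the library where it was listed at 0, and was -2.74 and -3.85 with those pseudocounts.

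The activators open the core without ATP. Psme1 and Psme2 encode the subunits of the interferon-inducible 11S ring PA28, and lie within a short distance of each other at chr14:55578123-55581529 and chr14:55587441-55591113. Psme1 was at 150, 63.2 and 123 FPKM in Con, against 41.8, 156 and 132 FPKM in Abx, the lowest and the highest value both in Abx. Psme2 was the highest activator gene, at 154, 131 and 126 FPKM in Con, against 169, 148 and 189 FPKM in Abx, with overlap between Con library 1 and Abx library 2. The fitted differences were -0.14 (SE 0.55, limma adjusted p = 0.948) for Psme1 and 0.30 (SE 0.22, limma adjusted p = 0.695) for Psme2.

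Psme2b, at chr11:48945354-48946190, is a near copy of Psme2, and 712 of the 717 coding bases of both are the same (99.3%), with an identical run of up to 311 bases. The stretch that holds 3 of the 5 differences, coding bases 454 to 543 of the GRCm38 annotation, is shown with the differing bases in capitals.
Psme2: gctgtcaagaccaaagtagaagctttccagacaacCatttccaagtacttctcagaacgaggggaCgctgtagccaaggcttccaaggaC
Psme2b: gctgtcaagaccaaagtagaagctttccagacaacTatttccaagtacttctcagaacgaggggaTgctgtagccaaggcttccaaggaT

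Reads from the identical stretches could be assigned to either copy, so the split between them is uncertain. Psme2b was listed at 94.0, 76.0 and 91.2 FPKM in Con, against 73.1, 104 and 109 FPKM in Abx. The sum of Psme2 and Psme2b was 248, 207 and 217 FPKM in Con, against 242, 252 and 298 FPKM in Abx, so the groups also overlapped in the sum. The catalytic pairs were far less alike, with 66.8% identical aligned coding bases for Psmb5 and Psmb8, 64.2% for Psmb6 and Psmb9 and 63.7% for Psmb7 and Psmb10, and identical runs of at most 18 bases.

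Psme3, the nuclear activator, was at 19.7, 29.1 and 32.0 FPKM in Con, against 7.62, 11.3 and 76.7 FPKM in Abx, on both sides of the Con range. Psme4, the large activator PA200, was the lowest tested proteasome gene, at 0.02, 0.05 and 1.37 FPKM in Con, against 0.10, 1.35 and 8.13 FPKM in Abx. The inhibitor gene Psmf1 was at 11.8, 10.2 and 21.01 FPKM in Con, against 27.4, 3.51 and 12.6 FPKM in Abx. For all 5 activator genes and the inhibitor the SD on the log2 scale was larger in Abx than in Con, as it was for 30 of the 47 proteasome genes (63.8%) and for 70.3% of all genes tested.

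Of the 6 entries that are no subunits, Psmc3ip was at 6.18, 24.6 and 0 FPKM in Con, against 0.05, 6.61 and 13.7 FPKM in Abx. Psma5-ps was listed at 0.0866 to 0.111 times the level of Psma5 in each library, and whether its reads came from Psma5 was not tested. Psmb6-ps2 did not exceed 0.42 FPKM, and the other pseudogenes were at 0.

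By role, the 14 constitutive core genes all had a fitted difference above 0 (47% of all genes tested), with a median of 0.27 and a range of 0.05 to 0.60. After quantile normalization 9 of the 14 core genes were above 0 (51.5% of all genes tested) and the core median was 0.11. The 7 alpha genes had a median of 0.21, the 4 structural beta genes 0.44 and the 3 constitutive catalytic genes 0.28. The 3 inducible genes had a median of 0.11 with 2 of 3 above 0 (1 of 3 with quantile normalization). Of the 17 cap genes 10 were above 0, with a median of 0.07 (6 of 17 and -0.06 with quantile normalization). In Abx libraries 1, 2 and 3, 8, 9 and 8 of the 14 core genes exceeded every Con library, beside 33.5% to 34.7% of all genes tested. In the same order, 3, 2 and 2 of the 14 were below every Con library, beside 28.7% to 33.8% of all genes tested.

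The summed FPKM of the 14 core genes was 1812, 1867 and 1420 in Con, against 2174, 2230 and 2017 in Abx. All 3 Abx sums were above the Con sums, and Con library 3, which had the lowest Con value for 10 of the 14 core genes, stood below the others. Without Con library 3, 11 of the 14 core differences were above 0 and their median was 0.17, and without Abx library 2 it was 10 of 14 with a median of 0.24. The summed FPKM of the 17 cap genes overlapped between groups, with 1207, 1097 and 1002 in Con, against 1308, 1117 and 1197 in Abx. The core sum was 1.42 to 1.70 times the cap sum in Con, against 1.66 to 2.00 times in Abx. These sums and medians are descriptions of genes that share libraries and carry no test.

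**Figure D5:**
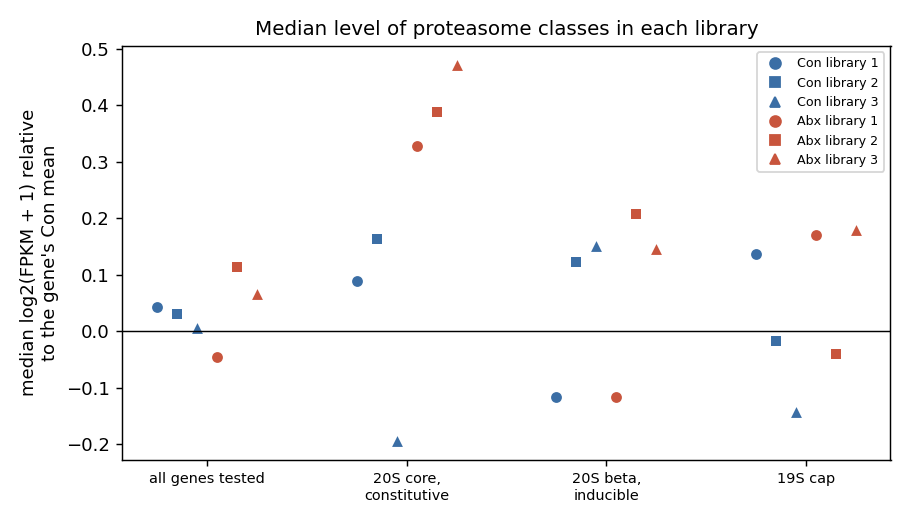
Median over the genes of a class of log2(FPKM + 1) relative to each gene's Con mean, for each library. The core medians are 0.33 to 0.47 in Abx and -0.19 to 0.16 in Con, whereas the inducible genes (-0.12 to 0.21) and the cap genes (-0.14 to 0.18) overlap between groups and all genes tested stay between -0.05 and 0.11.

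Partners of the proteasome in the ubiquitin pathway were examined as a list of 28 genes, of which 24 were tested. None was called or had an unadjusted p under 0.05 in limma, and 13 were above 0 with a median of 0.11. Pomp, the chaperone that matures the catalytic subunits, was at 32.4, 57.6 and 35.2 FPKM in Con, against 42.7, 55.7 and 47.3 FPKM in Abx, which overlapped. Nfe2l2, the transcription factor that binds antioxidant response elements, was at 21.7, 26.7 and 21.3 FPKM in Con, against 3.42, 13.5 and 14.1 FPKM in Abx. Each Abx value of Nfe2l2 was under each Con value (fitted difference -1.28, SE 0.61, limma adjusted p = 0.502). The same arrangement held for Txnl1, and the opposite for Rad23b.

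The list of inducers and peptide loading genes beside the immunoproteasome had 8 members, of which 6 were tested and none was called. Tap1, which starts next to Psmb9, was at 9.55, 1.51 and 3.84 FPKM in Con, against 7.71, 7.46 and 6.61 FPKM in Abx. Tap2, beyond Psmb8, was at 31.5, 34.4 and 42.8 FPKM in Con, against 69.7, 17.3 and 88.2 FPKM in Abx. Both overlapped between groups, as did the inducer Irf1, with 6.77 to 28.6 FPKM in Con, against 15.8 to 29.7 FPKM in Abx. Tapbp, which tethers MHC class I to the transporter, was at 54.5, 90.4 and 59.9 FPKM in Con, against 30.8, 38.9 and 30.3 FPKM in Abx, without overlap (fitted difference -0.99, SE 0.32, limma adjusted p = 0.266).

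Several properties of the libraries moved with the groups beside the differences above. Genes at 1 FPKM or more numbered 8574 to 9203 in Con and 7074 to 8193 in Abx, and the Pearson correlation of log2(FPKM + 1) across genes between libraries of a group was 0.805 to 0.846 in Con and 0.655 to 0.690 in Abx. The 13 ILC2 markers summed to 2857 to 3262 FPKM in Con and to 2165 to 2747 FPKM in Abx, with none at 0 in all libraries and the receptor gene Il1rl1 at 2.94 FPKM or less. Of the 12 ILC2 markers tested, 6 had a fitted difference above 0. Icos, Areg and Arg1 were lower in every Abx library (8.73% of all genes tested), and Ptprc was higher in every Abx library (8.49% of all genes tested). The 10 B cell markers summed to 609 to 803 FPKM in Con, against 1950 to 2360 FPKM in Abx, with none at 0 in all. Of these 10, 6 were higher in every Abx library (8.49% of all genes tested) and 1, Cd79b, was lower in every Abx library (8.73% of all genes tested). The 9 T cell markers summed to 1223 to 1406 FPKM in Con, against 2516 to 2847 FPKM in Abx (4 of 9 higher in every Abx library, 8.49% of all genes tested), and Cd4 and Cd8a were at 0 in most libraries. Of that sum, Trbc2 made up 874 to 958 FPKM in Con and 1639 to 1803 FPKM in Abx. Trbc1 made up 208 to 387 FPKM in Con and 633 to 778 FPKM in Abx, while Cd3e and Trac overlapped between groups. The 6 NK cell markers summed to 5.78 to 43.9 FPKM in Con and 218 to 235 FPKM in Abx, of which Gzma alone made up 215 to 224 FPKM in Abx. Klrb1c and Prf1 were at 0 throughout, Ncr1 and Eomes were at 0 in every Abx library, and Gzmb was at 5.78 to 22.2 FPKM in Con and 0 to 20.03 FPKM in Abx. Markers of myeloid cells summed to 131 to 366 FPKM in Con and 176 to 381 in Abx, of epithelium to 24.5 to 1158 and 55.7 to 142, of endothelium to 5.02 to 10.7 and 6.14 to 20.95, of fibroblasts to 0.38 to 0.76 and 0.52 to 2.38 and of erythroid cells to 6391 to 14777 and 3166 to 8614. The epithelial sum of Con library 1 was mostly Scgb1a1, at 1109 FPKM. Sftpc was higher in every Abx library (11.3 to 36.8 FPKM in Con, 48.3 to 56.1 FPKM in Abx), and the other 2 epithelial genes tested, Epcam and Scgb1a1, overlapped between groups. Xist was at 3.78 to 5.09 FPKM in Con and 0 in Abx, and Y-linked Eif2s3y at 0.03 to 0.86 and 11.9 to 24.4 FPKM, so sex and exposure cannot be told apart. The sort left out cells stained for CD3e, CD4, CD5, CD8a, TCR-beta, B220, NK1.1, Gr1, CD11b, CD11c or Ter119, which mark most of these other cell types. The part of other cells, of library quality and of sex in the proteasome values was not tested, and in bulk RNA a change in the share of a cell type and a change in RNA per cell cannot be told apart.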

How the data were processed

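The deposited files hold FPKM for each gene in 6 libraries, which the authors made, per their methods, by trimming with Cutadapt, mapping with HISAT2 and assembling with StringTie. Their methods name a human Ensembl release 96, while the gene identifiers are mouse, and the submitters' processing notes name Bowtie 0.12.2 with mm8 and mm9. Of the 55394 identifiers, 55134 are in GENCODE M21 (GRCm38), which gave the positions. Depth is unknown, since low values were not clearly spaced like whole reads. The DESeq2 comparison of the authors therefore could not be repeated, and no counting error is given. With the best of many step sizes in each library, 22.2% to 37.0% of low values lay within 10% of a step. For a single fixed step 20% would by chance, and for the best of many steps more would. Groups were taken from the sample labels.

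Values were tested as log2(FPKM + 1), which understates changes of low genes, with limma 3.58.1 in R 4.3.3 (lmFit, eBayes with trend, two-sided, no block, Benjamini-Hochberg over all genes that reached 1 FPKM in 3 or more libraries). A gene was called at a fold over 2 and adjusted p under 0.05. Ratios were compared with exact permutation tests, and their p-values were adjusted over the 3 pairs by Benjamini-Hochberg (scipy 1.17.1). The genes given by library are the catalytic, activator and inhibitor genes, those restricted to other tissues, those listed both at 0 and at 1 FPKM or above, those whose groups do not overlap and the 5 with the smallest p in each direction. The highest and lowest of each role are named too, and Psma5, Psmb2, Psmc5, Psmd1, Psmd14 and the partner genes given by library other than Tap1 and Tap2 were chosen after their values were seen. The members, lists and tests were chosen with earlier results of these data known. Lists covered partners, inducers and markers, and some of their members are not reported here. Alternatives were pseudocounts of 0.1 and 0.01, quantile normalization, median centring, no filter, a filter on a mean of 5 FPKM, leaving out single libraries, a replicate block, and unadjusted p.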

Additional observations from a re-analysis of the deposited data

How the results depend on the processing

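No proteasome gene was called under any alternative that kept the adjusted p, and 1, Psmg1, passed with the unadjusted p. The 5 genes called over the whole table became 0 with a pseudocount of 0.1 or 0.01, with median centring, with no filter and with the replicate block, 814 with the unadjusted p, and 0 to 2 with a library left out. They were 7 with quantile normalization or the stricter filter, which included the 5. The median difference of the proteasome genes moved from 0.13 to -0.034 with quantile normalization, under which the median of all genes moved from -0.06 to 0.03, and it ranged from 0.10 to 0.26 with a library left out. The cause was not tested. With quantile normalization Psmb6 turned to -0.034 and Psmb8 to -0.062. With a library left out the differences ranged from -0.14 to 0.18 for Psmb6, from -0.014 to 0.26 for Psmb8, from -0.22 to 0.021 for Psmb10 and from -2.74 to 0.091 for Psmg4. The log2 ratios ranged from -0.67 to -0.21 for Psmb8 to Psmb5, from 0.079 to 0.33 for Psmb9 to Psmb6 and from -0.76 to 0.00052 for Psmb10 to Psmb7, and the inducible share differed by -6.61 to -1.99 percentage points. Same-numbered libraries did not deviate together (r = -0.020, -0.029 and 0.0097 across genes), so no pairing by replicate number was seen. A weak pairing could have gone unseen with 3 libraries per group. With the number as a block, 2 proteasome genes had an unadjusted p under 0.05 in limma in place of 4. Where leaving out a library left 2 in a group, the spread was pooled over both groups. Unknown depth, 3 libraries per group and the sex difference limit these comparisons.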
